A study of Mus musculus with 20 samples.

Results

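The enzymes of mitochondrial fatty acid oxidation and of the tricarboxylic acid (TCA) cycle were followed in mouse heart ventricle, with and without the tetracycline transactivator (tTA). The list held 39 genes, taken by name: 21 of beta-oxidation with fatty acid entry, and 18 of the TCA cycle with pyruvate dehydrogenase. Of these, 35 had a probe set of their own on the Affymetrix array, among 8251 genes in all, and each was read at its brightest probe set. Hadha, Cpt1b, Acsl1 and Pdk2 had none, and Acadvl and Idh3b were too dim to be tested, which left 33 genes (17 and 16) among 5658 tested.

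The heart burns mainly fatty acids. Long fatty acids enter the mitochondrion on carnitine, are shortened by rounds of dehydrogenation, hydration, a second dehydrogenation and thiolysis, and give acetyl-CoA, which the TCA cycle oxidises. Pyruvate dehydrogenase feeds the same pool of acetyl-CoA from carbohydrate, and the reduced cofactors of all these steps supply the respiratory chain.

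The study asked what tTA does to the heart. Mice of the FVBN strain without the transgene gave 2 arrays untreated (FVBN control) and 4 with doxycycline (FVBN + Doxy), and mice with tTA gave 8 arrays untreated (tTA) and 5 with the drug (tTA + Doxy). Doxycycline is an antibiotic that keeps tTA off its DNA target. The labels name the alpha MHC promoter, that of the cardiac myosin gene Myh6, only as a keyword of 3 arrays, and give no age, sex, dose or length of treatment. Whether each array is a different animal is not stated, so the p-values cover the spread among these samples alone, which may be technical. Arrays are called by the numbers in their labels. FVBN arrays run from 8177 to 8341, and tTA arrays from 7288 to 7488, with 9310 and 9322. Genotype, and treatment within a genotype, therefore cannot be told apart from these stretches of numbers.

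Of the 14 cardiomyocyte markers, 12 had a probe set, and all 12 were brighter than the median probe set. Their summed intensity ran from 37773 to 40259 in FVBN control, 37861 to 39739 in FVBN + Doxy, 35315 to 40175 in tTA and 37108 to 40515 in tTA + Doxy, so the ranges overlapped. Single markers did change: Ryr2, the calcium release channel, fell without Doxy (-0.82 ± 0.10 on the log2 scale, limma adjusted p = 5.94e-05) and with it (-0.58 ± 0.09, adjusted p = 0.000527). With Doxy, Ckmt2, the mitochondrial creatine kinase, fell (-0.25 ± 0.06) and Mybpc3, a thick filament protein, rose (0.31 ± 0.05). For 9 smooth muscle and pericyte markers the sums were 1450 to 1494, 1206 to 1390, 1006 to 1152 and 1037 to 1233 in the same order. These sums were lower on every untreated tTA array than on any FVBN array. Of the 8 markers tested, 7 were negative without Doxy, with a median log2 fold change of -0.09. Only 2 had an adjusted p below 0.05, Acta2 (-1.27 ± 0.20, limma adjusted p = 0.00151) and Abcc9 (-0.66 ± 0.14, adjusted p = 0.0131). For 5 blood markers the sums were 4902 to 5420, 5419 to 5932, 2837 to 4899 and 2757 to 5688. These too were lower on every untreated tTA array than on any FVBN array, with 4899 just under 4902. Hba-a1 weighs most in them, at a mean log2 level of 11.99 against 7.40 for Alas2, the next brightest. Of the 4 blood markers tested, 2 were negative and 2 positive without Doxy, and 4 were negative with it. No adjusted p among them was below 0.05. For 10 endothelial markers the sums were 2477 to 2513, 2177 to 2563, 2205 to 2409 and 2109 to 2299, lower in tTA than in FVBN control but not than in every FVBN + Doxy array. Of these 10, 8 were negative without Doxy and 9 with it. Only Emcn passed, without Doxy (-0.28 ± 0.07, limma adjusted p = 0.0265). The 8 macrophage markers tested were all negative in both comparisons. Only Cd14 passed, with Doxy (-0.19 ± 0.05, limma adjusted p = 0.034). The part of these markers in the results below was not tested. In ventricle as a whole, fewer cells of a type and less RNA per cell cannot be told apart.

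Promoters of Echs1, Hadh, Cs and Dlat are shown first, for their sequence context. Echs1 was called in both comparisons of tTA with FVBN, and the others had the next smallest limma p among listed genes with a promoter. Dlat was called in no comparison, and Idh3a, called in both, had no promoter to show. RefSeq (GRCm38.p6) gave a promoter for 34 of the 39 genes, each of 300 bases, from 250 before to 50 after the start of transcription. The table held none for Decr1, Cpt1b, Crat, Acaa2 and Idh3a. The windows are chr7:140116372-140116671 on the minus strand for Echs1, chr3:131272052-131272351 on the minus strand for Hadh, chr10:128337477-128337776 on the plus strand for Cs and chr9:50659731-50660030 on the minus strand for Dlat. Capitals mark AGGTCA, the short element that many nuclear receptors bind.
Echs1: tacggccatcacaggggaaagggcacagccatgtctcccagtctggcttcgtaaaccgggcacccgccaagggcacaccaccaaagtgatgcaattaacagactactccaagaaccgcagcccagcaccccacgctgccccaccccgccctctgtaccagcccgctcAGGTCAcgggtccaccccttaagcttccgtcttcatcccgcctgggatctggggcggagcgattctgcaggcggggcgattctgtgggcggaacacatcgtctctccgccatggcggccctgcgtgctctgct
Hadh: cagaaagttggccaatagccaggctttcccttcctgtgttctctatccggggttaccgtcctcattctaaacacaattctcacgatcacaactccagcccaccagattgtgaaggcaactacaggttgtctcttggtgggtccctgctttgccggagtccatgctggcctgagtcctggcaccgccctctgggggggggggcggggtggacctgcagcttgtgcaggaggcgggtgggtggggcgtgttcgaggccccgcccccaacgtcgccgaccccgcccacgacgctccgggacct
Cs: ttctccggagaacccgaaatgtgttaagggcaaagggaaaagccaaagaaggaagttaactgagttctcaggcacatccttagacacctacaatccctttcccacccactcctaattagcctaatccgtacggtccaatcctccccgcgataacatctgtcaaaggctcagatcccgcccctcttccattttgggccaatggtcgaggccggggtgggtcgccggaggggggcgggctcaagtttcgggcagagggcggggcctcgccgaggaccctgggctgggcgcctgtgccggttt
Dlat: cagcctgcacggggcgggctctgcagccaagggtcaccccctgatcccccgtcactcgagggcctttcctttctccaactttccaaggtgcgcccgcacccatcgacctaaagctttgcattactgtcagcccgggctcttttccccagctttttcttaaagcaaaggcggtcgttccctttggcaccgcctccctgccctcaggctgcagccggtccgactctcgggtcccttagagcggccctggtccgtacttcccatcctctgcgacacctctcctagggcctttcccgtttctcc
The estrogen-related receptor element TCAAGGTCA, looked for on both strands, was in 0 of 41 promoters of the listed genes, against 0.423% of all 32851 promoters in the table. The direct repeat of AGGTCA spaced by 1 base, the form that PPAR receptors bind, was in 0 of 41, against 0.0396% of all. Both motifs are so rare in the table that 0 of 41 does not set the listed genes apart. Only exact matches within the 300 bases were looked for. AGGTCA alone, which is contained in both of these motifs, was in 8 of 41 (Acadm, Acadvl, Cpt1a, Echs1, Fh1, Idh3g, Ogdh and Sucla2), against 16.3% of all. In Echs1 it stood on the plus strand of the printed sequence at bases 168 to 173 of the window, and the other promoters printed here hold none. The listed genes' promoters had a median GC content of 60.3%, against 52.7% for all.

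Without Doxy, Echs1 and Idh3a fell in tTA hearts, and the other 31 tested genes did not pass. A change was called at a limma adjusted p below 0.05, with the Benjamini-Hochberg method over all 7453 probe sets tested. The 2 calls of 33 (6.06%) stand beside 208 of all probe sets (2.79%), and a count this small is not read as above that background. Log2 fold changes were negative for 24 of the 33 genes, against 45% of all probe sets. Most of the negative values were among the TCA genes, where 14 of 16 were negative with a median of -0.13. Among the beta-oxidation genes 10 of 17 were negative with a median of -0.03, and over all probe sets the median was 0.01. With median scaling of the arrays in place of quantile normalization, the TCA median was -0.25 and the beta-oxidation median -0.17. The beta-oxidation median turned positive with array weights (0.0018), with the beta-actin ratio added to the model (0.02), and without FVBN control array 8177 (0.05), tTA array 7288 (0.0068), tTA array 9310 (0.00073) or 7288 and tTA + Doxy array 7399 together (0.0070), while the TCA median stayed negative in every alternative run (from -0.25 to -0.09).

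With Doxy in both genotypes, Hadh rose and Echs1, Cs and Idh3a fell in tTA + Doxy hearts. These are 4 of 33 genes (12.1%), beside 437 of all probe sets (5.86%), and the difference of these shares was not tested. With median scaling, or with no further normalization, the 4 calls were others in part: Acads, Hadh and Dlat higher and Cs lower, with Echs1 and Idh3a no longer called. Log2 fold changes were negative for 23 of the 33 genes and for 56.1% of all probe sets. Of the TCA genes 13 of 16 were negative with a median of -0.08, and of the beta-oxidation genes 10 of 17 with a median of -0.02. The latter was 0.0032 with median scaling, 0.03 with the beta-actin ratio in the model and 0.0070 without FVBN + Doxy array 8338. The comparisons with and without Doxy share no array. Their log2 fold changes had the same sign for 28 of 33 genes (84.8%), 21 lower in both and 7 higher in both, and for 50.2% of all probe sets. Of the genes called, 2 of the 2 without Doxy and 2 of the 4 with Doxy were Echs1 and Idh3a. Over all probe sets, 76 were called in both, of the 208 without Doxy and the 437 with it. No p is given for this likeness, since the genes vary together from array to array.

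**Figure D1:**
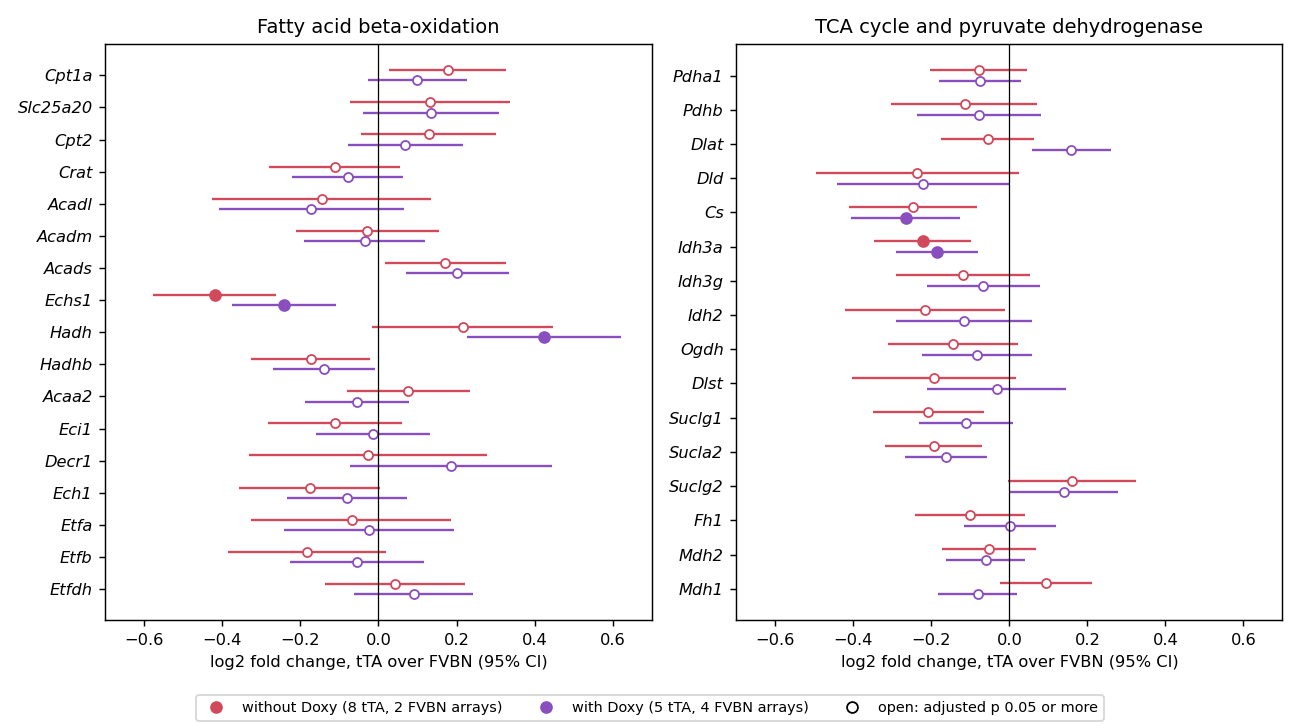
Log2 fold change of tTA over FVBN with 95% confidence interval for each of the 33 tested genes, without Doxy (red) and with Doxy (purple), beta-oxidation on the left and TCA cycle with pyruvate dehydrogenase on the right. Filled points passed: Echs1 and Idh3a in both comparisons, Hadh and Cs with Doxy.

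Fatty acid entry came first in the pathway and held no call. Its 4 tested genes were Cpt1a, the liver form of the enzyme that loads acyl groups onto carnitine, Slc25a20, the carrier across the inner membrane, Cpt2, which unloads them, and Crat, which handles short chains. Their log2 fold changes ran from -0.11 (Crat) to 0.18 (Cpt1a) without Doxy, with a smallest adjusted p of 0.207, and from -0.08 to 0.13 with Doxy, with a smallest adjusted p of 0.36. Cpt1a stood at 0.18 ± 0.07 (SE, adjusted p = 0.207) and 0.10 ± 0.06 (adjusted p = 0.36). Cpt1b, the muscle form of this enzyme, had no probe set, so the main carnitine transferase of the heart was not measured.

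The acyl-CoA dehydrogenases, which take the first step of each round on long (Acadl), medium (Acadm) and short (Acads) chains, also held no call. Acads read 8.16 and 7.93 on the log2 intensity scale in FVBN control, and 8.12, 8.22 and 8.32 as the lowest, median and highest of 8 tTA arrays. With Doxy it read 7.97, 8.14, 7.90 and 7.95 in FVBN and 8.36, 8.10, 8.06, 8.14 and 8.30 in tTA. Both pairs of groups overlapped, and the differences of 0.17 ± 0.07 (adjusted p = 0.245) and 0.20 ± 0.06 (adjusted p = 0.0622) did not pass. A further Acads probe set stood at 0.02 and -0.09. Acadl was at -0.15 ± 0.13 and -0.17 ± 0.11, and Acadm at -0.03 ± 0.09 and -0.04 ± 0.07.

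Echs1, the short-chain enoyl-CoA hydratase that adds water in the second step of each round, was the largest fall without Doxy (probe set 95426_at). It read 9.80 and 9.77 in FVBN control, and 9.14, 9.37 and 9.52 as the lowest, median and highest of the tTA arrays. All 8 tTA arrays lay below both controls. The log2 fold change was -0.42 ± 0.08 (adjusted p = 0.00224, 95% interval -0.58 to -0.26, 1.34-fold lower). With Doxy it read 9.55, 9.63, 9.67 and 9.76 in FVBN and 9.44, 9.29, 9.42, 9.55 and 9.33 in tTA. The groups met at their edges, where tTA + Doxy array 7486 lay just above FVBN + Doxy array 8337, and the other 4 tTA + Doxy arrays lay below all FVBN + Doxy arrays. The fold change was -0.24 ± 0.06 (adjusted p = 0.0262, 1.18-fold lower). This call was kept in 22 of 31 alternatives (largest adjusted p 0.115). It was lost without 8340, 8341, 7424, 7485 or 7488. It was also lost with median scaling, no further normalization, all probe sets tested or the beta-actin ratio in the model. The difference between these effects, 0.18 ± 0.10, did not pass (adjusted p = 0.398, 95% interval -0.03 to 0.38). The untreated call was lost without FVBN control array 8177 (adjusted p = 0.0774) and with the beta-actin ratio in the model (adjusted p = 0.125).

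Hadh, which oxidises the hydroxyl group formed by the hydratase, went the other way (95485_at). It read 9.06 and 8.76 in FVBN control and 8.99, 9.13 and 9.23 as the lowest, median and highest in tTA. These groups overlapped, because FVBN control array 8177 lay within the tTA range, and the difference of 0.22 ± 0.11 did not pass (adjusted p = 0.337). With Doxy, FVBN arrays read 8.65, 8.91, 8.79 and 8.97 and tTA arrays 9.01, 9.39, 9.13, 9.60 and 9.16. The groups did not overlap, and the highest tTA arrays were 7486 and 7424. Hadh rose by 0.42 ± 0.09 (adjusted p = 0.0106, 95% interval 0.23 to 0.62, 1.34-fold), a call kept in all 31 alternatives run, with a largest adjusted p of 0.0499. The difference between the effects with and without Doxy was 0.21 ± 0.15 (adjusted p = 0.504). A difference between them is thus not shown.

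Hadhb and Acaa2 complete these steps. Hadhb, a subunit of the trifunctional protein that carries the last 3 steps for long chains, was at -0.17 ± 0.07 (adjusted p = 0.226) and -0.14 ± 0.06 (adjusted p = 0.195). Acaa2, a thiolase that splits off acetyl-CoA, was at 0.08 ± 0.08 and -0.06 ± 0.06. Hadha, the partner of Hadhb, was not measured.

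The enzymes for unsaturated chains (Eci1, Decr1 and Ech1) and the electron transfer flavoprotein genes (Etfa, Etfb and Etfdh) held no call. The first group ran from -0.18 to -0.03 without Doxy and from -0.08 to 0.19 with it, and the second from -0.18 to 0.04 and from -0.06 to 0.09. Decr1, which reduces dienoyl intermediates, was the most variable of them: it read 7.81 and 7.35 on the 2 FVBN control arrays.

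**Figure D2:**
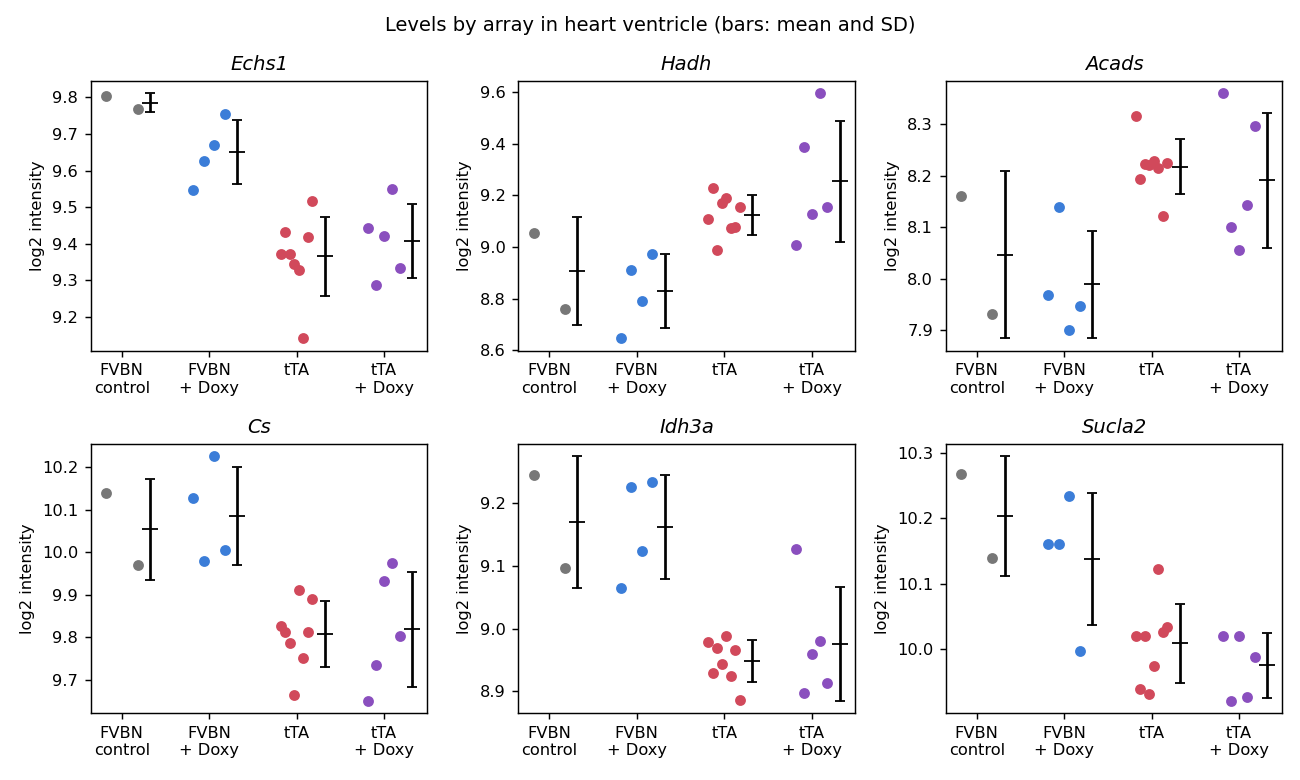
Log2 intensity on every array for Echs1, Hadh, Acads, Cs, Idh3a and Sucla2, one point per array, with the mean and SD of each group as bars. Echs1 and Cs lie lower on all 8 untreated tTA arrays than on both FVBN control arrays, and Hadh with Doxy lies higher on all 5 tTA arrays than on all 4 FVBN arrays.

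On the side of the TCA cycle, pyruvate dehydrogenase had no called gene. Its subunits Pdha1 and Pdhb make up the decarboxylase, Dlat is the acetyl transferase and Dld the dehydrogenase shared with the oxoglutarate complex. Dld read 9.15 and 9.18 in FVBN control and 8.70, 8.92 and 9.26 as the lowest, median and highest in tTA, and the groups overlapped. Its differences were -0.24 ± 0.13 (adjusted p = 0.354) and -0.22 ± 0.11 with Doxy (adjusted p = 0.234). Dlat stood at -0.06 ± 0.06 (adjusted p = 0.681) without Doxy and 0.16 ± 0.05 with it (adjusted p = 0.057). The Dlat values with Doxy were 7.74, 7.99, 7.87 and 7.73 in FVBN and 7.96, 7.96, 7.99, 8.05 and 8.01 in tTA. FVBN + Doxy array 8338 lay within the tTA range, and a dimmer Dlat probe set stood at 0.03 and -0.04.

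Cs, the citrate synthase that starts the cycle by joining acetyl-CoA to oxaloacetate, fell with Doxy (99666_at). It read 10.129, 9.980, 10.227 and 10.005 in FVBN + Doxy and 9.650, 9.734, 9.932, 9.975 and 9.804 in tTA + Doxy. The groups did not overlap, though the highest tTA array, 7486, came within 0.01 of the lowest FVBN array, 8338. The log2 fold change was -0.27 ± 0.07 (adjusted p = 0.0206, 1.20-fold lower). Without Doxy, FVBN control read 10.139 and 9.970, and tTA 9.664, 9.813 and 9.912 as lowest, median and highest. Again the groups did not overlap, but -0.25 ± 0.08 did not pass (adjusted p = 0.0946). It passed with median scaling (-0.34) and with no further normalization (-0.32). The call with Doxy was lost without 8337, 8340 or 7399, with all probe sets tested and with the beta-actin ratio in the model (largest adjusted p = 0.121). Its Doxy effects were 0.03 ± 0.09 in FVBN and 0.01 ± 0.06 in tTA.

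Idh3a, the catalytic subunit of the NAD-dependent isocitrate dehydrogenase, fell in both comparisons by less (94534_at). It read 9.24 and 9.10 in FVBN control and 8.89, 8.96 and 8.99 in tTA, as lowest, median and highest. The 8 tTA arrays lay within 0.10 of each other and below both controls. The fold change was -0.22 ± 0.06 (adjusted p = 0.0465, 1.17-fold lower). With Doxy it read 9.06, 9.23, 9.12 and 9.23 in FVBN and 9.13, 8.90, 8.96, 8.98 and 8.91 in tTA, for -0.19 ± 0.05 (adjusted p = 0.0311). Of the tTA + Doxy arrays, 7399 lay within the FVBN range and the other 4 below it. This call was kept in 21 of 31 alternatives (largest adjusted p 0.147). It was lost without 8338, 8341, 7424, 7485, 7486 or 7488. It was also lost with median scaling, no further normalization, only the arrays compared or the beta-actin ratio in the model. The untreated call is close to the threshold and was kept in 13 of 31 alternatives (largest adjusted p 0.586). It was lost on leaving out any of 14 arrays: 8177, 8182, 8338, 8340, 7292, 7294, 7308, 7310, 7311, 9310, 9322, 7485, 7486 or 7488. Idh3g, a regulatory subunit of the same enzyme, was at -0.12 ± 0.08 and -0.07 ± 0.07, and the NADP-dependent Idh2 at -0.22 ± 0.10 and -0.12 ± 0.08, none of them called.

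From oxoglutarate to fumarate 5 genes were tested and none passed. Sucla2, a subunit of the ADP-forming succinyl-CoA synthetase, read 10.27 and 10.14 in FVBN control and 9.93, 10.02 and 10.12 as the lowest, median and highest in tTA. These groups did not overlap, and -0.19 ± 0.06 did not pass (adjusted p = 0.0808), nor did -0.16 ± 0.05 with Doxy (adjusted p = 0.0618). Its probe set is of a kind whose probes can match related sequences. Suclg1, the subunit common to both synthetases, was at -0.21 ± 0.07 (adjusted p = 0.104) and -0.11 ± 0.06 (adjusted p = 0.278). Suclg2, which pairs with Suclg1 in the GDP-forming enzyme, lay on the other side at 0.16 ± 0.08 (adjusted p = 0.314) and 0.14 ± 0.07 (adjusted p = 0.241). In the oxoglutarate dehydrogenase complex, Ogdh was at -0.14 ± 0.08 and -0.08 ± 0.07 and Dlst at -0.19 ± 0.10 and -0.03 ± 0.09. The last steps, Fh1 (fumarase), Mdh2 (mitochondrial malate dehydrogenase) and Mdh1 (its cytosolic form), ran from -0.10 to 0.09 and from -0.08 to 0.0010.

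**Figure D3:**
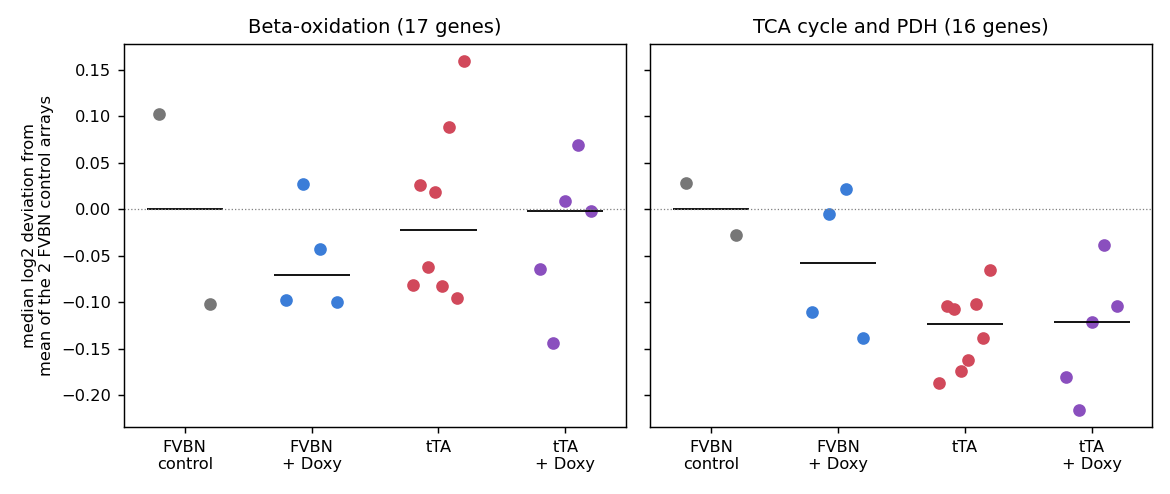
Median log2 deviation of the 17 beta-oxidation genes (left) and the 16 TCA cycle and pyruvate dehydrogenase genes (right) from the FVBN control mean, one point per array, with a line at each group's median. The TCA points of all 13 tTA arrays lie below 0 (-0.04 to -0.22) and overlap those of FVBN + Doxy (-0.14 to 0.02).

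Array by array, the TCA genes lay below the FVBN control mean on all 13 tTA arrays, by a median over genes of -0.22 to -0.04. Of the 4 FVBN + Doxy arrays, 8337 and 8341 were at -0.11 and -0.14, within the tTA range, and 8338 and 8340 at -0.01 and 0.02. The beta-oxidation genes spread on both sides in tTA, from -0.14 to 0.16. The controls themselves differed: array 8177 lay above 8182 for 14 of 17 beta-oxidation genes, with a median difference of 0.21, against -0.0035 over all probe sets. The gap was widest for Decr1 (0.46), Slc25a20 (0.42), Ech1 (0.36) and Cpt2 (0.35). With only 2 control arrays, values of these genes against FVBN control rest on which of them is used.

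**Figure D4:**
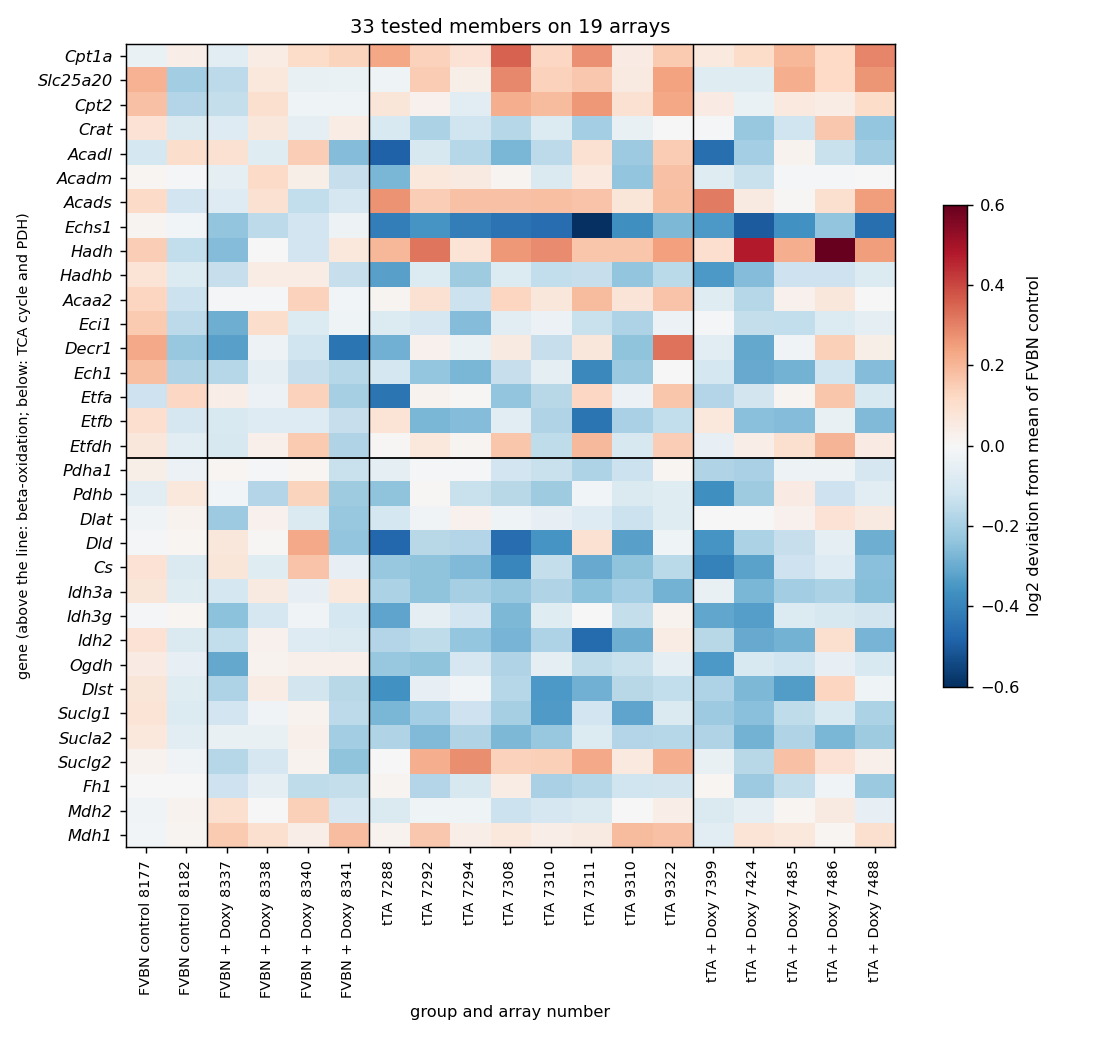
Log2 deviation from the FVBN control mean for the 33 tested genes (rows, beta-oxidation above the line) on the 19 arrays (columns, by group and number), blue lower and red higher. Echs1, Cs and Idh3a are on the blue side and Hadh on the red side in all tTA and tTA + Doxy columns, some of them faintly. Arrays tTA 7288 and tTA + Doxy 7399 are low for Acadl (8.40 and 8.44).

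The lowest and highest values of the listed genes were spread unevenly over the arrays. tTA array 7288 was the lowest of 8 for 12 of the 33 genes, and array 9322 the highest for 13. In tTA + Doxy, 7399 was the lowest of 5 for 14 genes but the highest for 7. Array 7424 was the lowest for 13, and 7486 the highest for 15. In FVBN + Doxy, 8341 was the lowest of 4 for 15 genes and the highest for 5, and 8337 was the lowest for 14. The same counts over all probe sets were not taken, so these describe the listed genes only. Leaving out 7288 and 7399 together, a choice made after the data were seen, kept both calls without Doxy and left 3 of the 4 with Doxy, losing Cs.

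**Figure D5:**
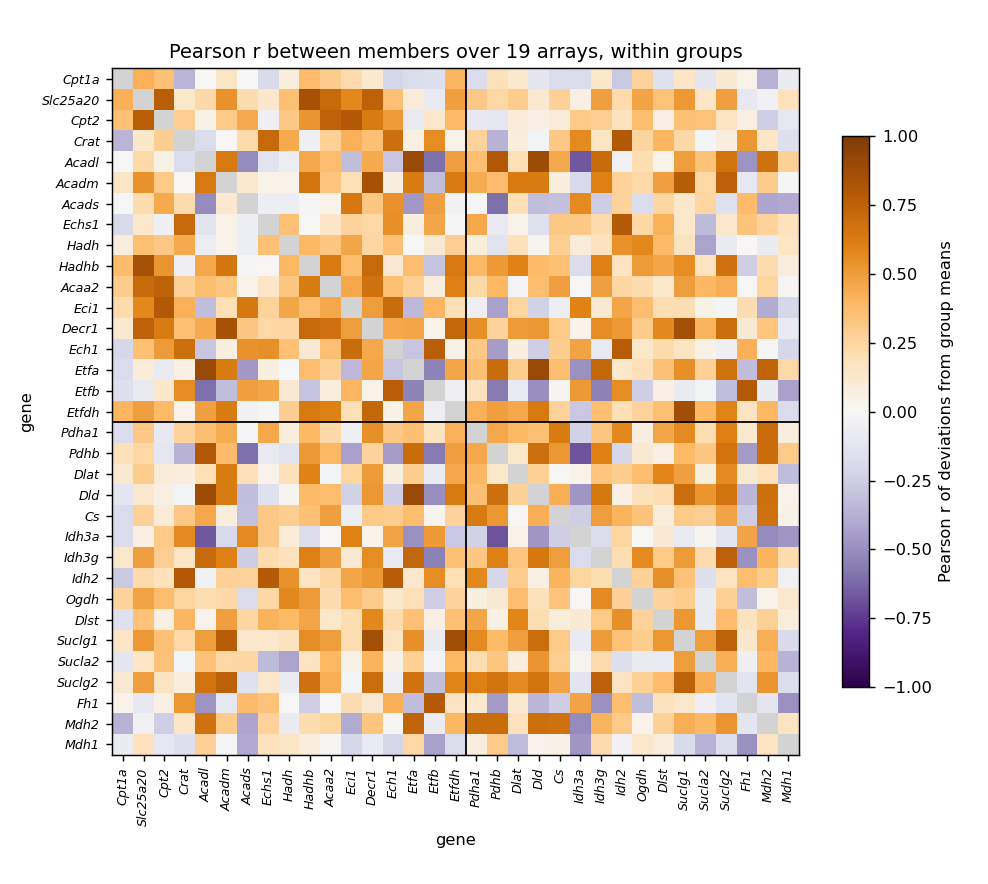
Pearson r between the deviations of each pair of tested genes from their group means over 19 arrays, beta-oxidation before the lines and TCA cycle with pyruvate dehydrogenase after them, orange positive and purple negative. Etfa, Acadl and Dld form the strongest pairs (0.89), and Idh3a is purple against them.

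Within groups, the enzymes varied together. The median Pearson r of deviations from the group means over 19 arrays was 0.29 for 136 pairs within beta-oxidation, 0.26 for 120 pairs within the TCA genes and 0.21 for 272 pairs between the sets. Over all pairs of tested probe sets it was -0.0013, and among the brightest 10% -0.0047. All values of a pair come from the same arrays and normalization, so these are descriptions. Etfa and Dld (0.89), Acadl and Etfa (0.89), Acadl and Dld (0.88), Etfdh and Suclg1 (0.86), Decr1 and Suclg1 (0.86), Hadhb and Slc25a20 (0.84) and Acadm and Decr1 (0.84) were the closest pairs. Of the called genes, Echs1 was closest to Idh2 (0.79), Cs to Mdh2 (0.67), Idh3a to Eci1 (0.60) and Hadh to Ogdh (0.58). Idh3a had a median r of only 0.0019 with the other members.

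Doxy itself gave no called gene of the list in either genotype. In FVBN, limma called 0 of 33 genes, beside 3 of all probe sets (0.0403%). At an unadjusted p below 0.05 there were 0 genes, beside 11.8% of all probe sets. Fold changes were negative for 15 of 17 beta-oxidation genes (median -0.04) and 12 of 16 TCA genes (median -0.07). Without FVBN control array 8177 the counts were 3 and 8, and the medians 0.04 and -0.00041. The largest were Decr1 (-0.23 ± 0.16, adjusted p = 0.561), Echs1 (-0.14 ± 0.08) and Ech1 (-0.13 ± 0.10) among the beta-oxidation genes, and Dlat (-0.13 ± 0.06) and Suclg2 (-0.12 ± 0.09) among the TCA genes. In tTA, limma called 0 of 33, beside 5 of all probe sets (0.0671%). At an unadjusted p below 0.05 there were 2 genes, beside 7.65% of all probe sets. They were Suclg2 (-0.15 ± 0.06, adjusted p = 0.547) and Dlat (0.09 ± 0.04, adjusted p = 0.642). Hadh (0.13 ± 0.08) and Acaa2 (-0.11 ± 0.05) were the largest among the beta-oxidation genes.

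The difference of the Doxy effects between genotypes, an interaction term, had 0 of 33 called in limma, beside 1 of all probe sets (0.0134%). At an unadjusted p below 0.05 there were 2 genes, beside 14.6% of all probe sets. These were Dlat (0.22 ± 0.08, adjusted p = 0.251) and Mdh1 (-0.18 ± 0.07, adjusted p = 0.302). Decr1 (0.21 ± 0.19) and Hadh (0.21 ± 0.15) were the largest among the beta-oxidation genes. Intervals of this size leave differences of up to 0.61 for Decr1 and 0.51 for Hadh within reach, so equal Doxy effects are not shown.

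In the lists of neighbouring steps, the called share without Doxy was 25% of the remaining cycle enzymes, 18.2% of the shuttle and anaplerosis genes, 16.7% of the uptake and activation genes and 10% of the peroxisomal and auxiliary genes, beside 2.79% of all probe sets. With Doxy the shares were 0, 9.09, 16.7 and 0%, beside 5.86%. Each share rests on 0 to 2 genes, and none was tested against the background. Each call without Doxy named here was lost when FVBN control array 8177 or 8182 was left out: both for Sdhb and Slc25a11, 8177 for Idh1, and 8182 for Dbi and Phyh. Idh1 was lost as well without 7288, 7294, 7308, 7310 or 9310. Among the remaining cycle enzymes, 1 of 4 fell without Doxy, Sdhb, the iron-sulfur subunit of succinate dehydrogenase (-0.22 ± 0.05, adjusted p = 0.0264), and 0 of 4 passed in limma with Doxy, with 1 at an unadjusted p below 0.05. Of 11 shuttle and anaplerosis genes, Idh1, the cytosolic isocitrate dehydrogenase (-0.33 ± 0.09, adjusted p = 0.0368), and Slc25a11, the oxoglutarate carrier (-0.31 ± 0.08, adjusted p = 0.0292), fell without Doxy. Slc25a11 fell with Doxy too (-0.24 ± 0.07, adjusted p = 0.0339), a call kept in 20 of 31 alternatives. Among the losses were those without 8337, 8340, 8341, 7399, 7424 or 7488. Of 6 uptake and activation genes, Dbi, the acyl-CoA binding protein, rose without Doxy (0.32 ± 0.08, adjusted p = 0.0214) and with it (0.36 ± 0.06, adjusted p = 0.00218), the latter in all 31 alternatives. Of 10 peroxisomal and auxiliary genes, Phyh, a peroxisomal hydroxylase of branched chains, fell without Doxy (-0.40 ± 0.07, adjusted p = 0.00272), while with Doxy it was at -0.20 ± 0.06 (adjusted p = 0.0598). Limma called 0 of 10 regulators, 0 of 8 PPAR targets and 0 of 2 genes of pyruvate entry in either comparison. At an unadjusted p below 0.05 there were 2, 3 and 0 without Doxy and 3, 1 and 0 with it. Over all probe sets, 16.7% were at an unadjusted p below 0.05 without Doxy and 21.1% with it.

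One measure of RNA quality, a ratio that is higher in more degraded RNA, was lower on average in tTA. The difference did not pass after adjustment. The log2 ratio of the 3 prime to the 5 prime beta-actin control probe set averaged 0.323 ± 0.11 (SD, n = 8) in tTA and 0.549 ± 0.0082 (n = 2) in FVBN control (two-sided exact permutation p = 0.0444, adjusted over 4 tests 0.0889). It averaged 0.362 ± 0.0603 (n = 5) in tTA + Doxy and 0.509 ± 0.0793 (n = 4) in FVBN + Doxy (exact permutation p = 0.0317, adjusted 0.0889). The Gapdh ratio gave exact permutation p = 0.756 and 0.794. With 8 and 2 arrays, 0.0444 is the smallest p that the exact permutation test can give. Beside the Gapdh values, its adjusted p could not fall below 0.0889, so this difference could not have passed. Adding this ratio to the limma model left 0 of 33 genes called without Doxy (Echs1 at an adjusted p of 0.125) and 1, Hadh, with it. Without Doxy the ratio was 0.145 to 0.445 on the tTA arrays and 0.543 and 0.555 on the FVBN control arrays. Without Doxy the fit can therefore hardly separate this ratio from genotype. With Doxy the ratios overlapped, with FVBN + Doxy array 8341 at 0.407 and tTA + Doxy array 7486 at 0.419. Echs1, Cs and Idh3a lost their calls with Doxy as well. No conclusion is drawn from the lost calls. The part of RNA quality in the results was not tested.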

How the data were processed

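RNA from mouse heart ventricle was read on Affymetrix arrays. The deposited values are linear intensity values per probe set; how the authors summarised or normalized them is not given in the sources used here. Arrays were grouped by their titles, and 1 array whose title gives no treatment entered no comparison. Of 12488 probe sets, 66 controls were left out. The other 12422 were quantile normalized over 19 arrays (limma 3.58.1 in R 4.3.3). Values under 14.37, their 10th percentile, were set to it before log2; differences near the floor are understated. The brightest 60% (7453 probe sets) were tested with 4 group means and eBayes (trend, robust), with Benjamini-Hochberg adjustment within each comparison and a threshold of 0.05. Confidence intervals are at 95%. A probe table linked 10833 probe sets to 1 gene and 396 to several, which were not named. The number of arrays limits the precision.

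Named with values were all called members, the 2 largest changes among beta-oxidation and among TCA genes in each comparison, called genes of the other lists (at most 4 a list), and members needed to follow the pathway. Members and lists were chosen with earlier results of these data known. The scaling, the floor, the filter on dim probe sets, array weights, variance moderation, the arrays in the fit, the beta-actin ratio as a covariate, other probe sets and each array left out were tried as alternatives. Promoters were shown, where the table held one, for members called in both genotype comparisons and then by smallest p, up to 4. The fit was tested on simulated data. Permutation tests used scipy 1.17.1, and plots Python 3.11.15 with matplotlib 3.10.9.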

Additional observations from a re-analysis of the deposited data

Results flagged for a closer look

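On 4 of 105 groups of 4 or more arrays, 1 array stood apart from the others for a member, where chance flags about 1 in 20 (5.25). Acaa2 read 10.703 on FVBN + Doxy array 8340, with the next highest at 10.56. Ogdh read 10.853 on FVBN + Doxy array 8337, with the next lowest at 11.18, and 10.814 on tTA + Doxy array 7399, with the next lowest at 11.04. Pdha1 read 10.755 on FVBN + Doxy array 8341, with the next lowest at 10.877.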

How the results depend on the processing

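Without Doxy, the 2 called members became 5 under median scaling or no further normalization (Echs1, Cs, Idh3a, Sucla2 and Suclg1), 1 with all probe sets, with only the arrays compared or without tTA arrays 9310 and 9322, and 0 with the beta-actin ratio added to the model; with 1 array left out they ran from 0 (without FVBN control array 8177) to 2. The 208 probe sets became 27 with that ratio and ran from 54 to 240. Median scaling gave 46 higher and 221 lower, against 72 and 136. The calls without Doxy fell to 63 probe sets without 8182. With Doxy, the 4 members (1 higher, 3 lower) were Acads, Hadh, Dlat (higher) and Cs (lower) with median scaling or no further normalization, became 6 with array weights or the brightest 40% (Sucla2 and Dlat added), 2 with all probe sets and 1 with the ratio, and ran from 2 (without 8340, 7424 or 7488) to 5. The 437 probe sets became 703 with array weights and 282 when all were tested, and ran from 241 to 493.

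For Doxy in FVBN the members stayed at 0, and the 3 probe sets became 1 with all probe sets, 5 with only the arrays compared, 8 without 9310 and 9322, 5 without 7288 and 7399 (a choice made after the data were seen), and ran from 1 to 7. For Doxy in tTA the members stayed at 0, and the 5 probe sets became 10 with median scaling, 11 with no normalization, 2 with all probe sets, 11 with array weights, 3 without 9310 and 9322 and 2 without 7288 and 7399, and ran from 3 to 23. For the interaction the members stayed at 0, and the 1 probe set became 6 with median scaling or none, 0 with all probe sets, 5 with the brightest 40%, 4 without 9310 and 9322 and 0 without 7288 and 7399, and ran from 0 to 4. The causes were not tested. Of the single-gene values (calls of the other pathway lists, added after the data were seen, included), 808 kept their direction and side of the threshold, 82 lost a call, 2 gained one and 5 changed sign. Many of the 808 were not called in the main fit and so had no call to lose. Without Doxy, the call was kept in 29 of 31 alternatives for Echs1 and 13 for Idh3a. With Doxy it was kept in 31 for Hadh, 25 for Cs, 22 for Echs1 and 21 for Idh3a. Without FVBN control array 8177, Decr1 went to 0.001 for Doxy in FVBN and to -0.015 in the interaction, and without 8182 to -0.458 and 0.444. At its other probe set Dlat went to 0.001 for Doxy in FVBN, -0.069 for Doxy in tTA and -0.070 in the interaction. Without the called members, a choice made after the data were seen, the beta-oxidation and TCA medians were -0.03 and -0.12 without Doxy and -0.02 and -0.08 with it. No paired analysis was possible because the groups share no array numbers. With 2 control arrays, small changes against FVBN control cannot be measured precisely.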

Other observations

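The array titled Cardiac tTA expression, which has no stated treatment, lay within the range of the 19 grouped arrays for all 35 members with a probe set.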
